A study of Homo sapiens with 16 samples.

Results

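The genes described here are 9 contractile genes of the myoepithelial cell and CRYAB: ACTA2, ACTG2, TAGLN, CNN1, CALD1, MYLK, MYL9, TPM1, TPM2 and CRYAB. They were taken by name from the transcript clusters (the probe groups of the array, about 1 per gene) that carry exactly 1 platform symbol, and each had a single such cluster. They are 10 of 18417 genes named in that way. The values were log2 signals from Affymetrix Human Gene 1.0 ST arrays. Of the 10, 8 reached a log2 signal of 6, the floor used here for a measurable signal, on at least 2 of the 16 arrays and were tested. CNN1 and ACTG2 did not.

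All cells belonged to HCC70 or MDA-MB-468, a pair of basal-like breast cancer cell lines of human origin. The title of the series asks how EZH2 bears on the mixed lineage character of these cells. EZH2 is the methyltransferase of the Polycomb complex PRC2, whose histone mark silences genes, and EED is a core protein that this complex needs for activity. The groups were HCC70 with an shRNA against EZH2 (shEZH2) and HCC70 with a scrambled shRNA, set a. They were also HCC70 with an shRNA against EED (shEED) and HCC70 with a scrambled shRNA, set b, then HCC70 with an EZH2 cDNA vector and HCC70 with an empty vector. The titles name the cDNA group fip EZH2 and the empty vector group plKO Puro. They do not say that the vectors share a backbone, and a part of the vector in the difference between these groups was not tested. In the other line they were MDA-MB-468 with shEZH2 and MDA-MB-468 with a scrambled shRNA. Every group held 2 arrays, and all cells were virally infected, stably selected in puromycin and seeded at equal confluence on the day before RNA extraction. Each line stands for 1 tumour, the labels give no shRNA sequence or clone number, and nothing says whether duplicates were separate cultures. P-values therefore measure the spread between these arrays, which may be technical. The assignment of set a to shEZH2 and of set b to shEED was read from the blocks of the sample codes and is not stated outright in the labels, so each result was also computed with the other set.

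Myoepithelial cells form the outer layer of the breast duct and contract around it when oxytocin acts on them. Their contraction runs as in smooth muscle: calcium and calmodulin activate myosin light chain kinase (MYLK), which phosphorylates the regulatory light chain (MYL9), and myosin then pulls on filaments of smooth muscle actin (ACTA2, ACTG2). Tropomyosins (TPM1, TPM2), caldesmon (CALD1), calponin (CNN1) and transgelin (TAGLN) bind along the actin filament and steady or restrain it. Many of these genes are known targets of serum response factor (SRF), which binds a DNA element called the CArG box together with the coactivators myocardin or MRTF. CRYAB is alpha B-crystallin, a small heat shock protein and chaperone that also marks basal-like breast tumours.

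RefSeq start-site windows (GRCh38.p14, 250 bases before to 50 after the start) were searched on both strands for the CArG box, since many of the contractile genes are known SRF targets. Windows were at hand for 7 of the 10 genes, 12 windows in all, and those of TAGLN, MYL9 and CRYAB were not used here. The CArG box itself lay in 1 window of ACTG2 and in 1 window of MYLK, and was in 1.29% of all 35116 windows. The same element with 1 other base in its core lay in 1 window of ACTA2 and 1 of CALD1, against 6.94% of all windows. The windows of CNN1, TPM1 and TPM2 held neither form. The ACTA2 window with matches lies nearer the 3′ end of the gene, and the ACTA2 window at the 5′ end held neither form. The ACTA2, ACTG2 and MYLK windows are shown with these matches in capitals. They are chr10:88952724-88953023 on the minus strand, chr2:73892758-73893057 on the plus strand and chr3:123620499-123620798 on the minus strand.
ACTA2: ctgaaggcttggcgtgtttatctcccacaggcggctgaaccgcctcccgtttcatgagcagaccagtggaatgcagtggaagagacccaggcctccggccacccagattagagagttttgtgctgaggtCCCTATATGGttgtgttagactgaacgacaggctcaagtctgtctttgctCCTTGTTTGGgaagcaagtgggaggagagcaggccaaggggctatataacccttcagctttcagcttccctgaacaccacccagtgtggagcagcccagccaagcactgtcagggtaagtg
ACTG2: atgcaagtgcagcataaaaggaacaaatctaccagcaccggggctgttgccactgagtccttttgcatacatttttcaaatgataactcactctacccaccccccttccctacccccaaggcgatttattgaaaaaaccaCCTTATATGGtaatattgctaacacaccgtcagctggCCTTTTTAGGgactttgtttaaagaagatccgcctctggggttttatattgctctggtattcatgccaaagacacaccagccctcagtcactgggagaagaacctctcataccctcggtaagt
MYLK: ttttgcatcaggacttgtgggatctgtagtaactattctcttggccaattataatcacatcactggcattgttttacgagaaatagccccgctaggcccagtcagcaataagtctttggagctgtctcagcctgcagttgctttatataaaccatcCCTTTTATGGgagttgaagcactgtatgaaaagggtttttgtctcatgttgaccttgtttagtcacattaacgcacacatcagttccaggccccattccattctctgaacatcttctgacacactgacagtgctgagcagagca
The matches begin at -121 and -71 from the start in ACTA2, at -110 and -73 in ACTG2 and at -94 in MYLK. The MYLK window lies nearer the 3′ end of the gene, where the short non-kinase product telokin is known to start, and the gene's single cluster value does not separate telokin from the full-length kinase. A letter match shows neither binding nor a cause of any value below, and ACTG2, with 2 matches, stayed under the floor on all 16 arrays.

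Before the members, the targeted genes were read on every array. EZH2 averaged 8.54 in HCC70 shEZH2 arrays, against 10.01 in scrambled set a, a change of -1.47 ± 0.07 (SE, adjusted p = 3.35e-07 by limma, as for all adjusted p-values here). In MDA-MB-468 it measured 8.39 and 8.48 with shEZH2 and 10.07 and 10.14 with scrambled shRNA (-1.67 ± 0.07, adjusted p = 2.56e-07). EED measured 7.54 and 7.49 in shEED arrays, against 8.35 and 8.31 in scrambled set b (-0.82 ± 0.11, adjusted p = 0.000347), so each knockdown lowered its own target. EZH2 was also -0.24 ± 0.07 in shEED against set b (adjusted p = 0.0456), but against set a it was -0.17 and did not pass (adjusted p = 0.0785). With EZH2 cDNA, EZH2 measured 10.20 and 10.27, against 9.94 and 9.94 with empty vector, and this 0.29 ± 0.07 change did not pass the test (adjusted p = 0.0961). Over all clusters, 43.1% to 44.5% reached the floor on each array and duplicates correlated at 0.994 to 0.997. EED itself was 0.38 ± 0.11 higher in set a than in set b (adjusted p = 0.0219), and shEED was -1.21 against set a (adjusted p = 8.15e-06). Scrambled set a differed from set b, which carries the same labels, in 22.7% of the 16175 clusters tested. Values with the other set are therefore given beside many of the results, though not all.

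Across the study, CRYAB was lower in all 3 knockdowns and higher with EZH2 cDNA than in the control assigned to each. MYLK passed the test in 1 of the 4 treatments, HCC70 shEZH2, where it was higher. In HCC70 shEZH2 against set a, 4 of the 8 genes tested passed, 3 higher and 1 lower, where 11.4% of all clusters did (7.3% higher, 4.06% lower). In shEED against set b 2 passed, both lower, beside 14.2% of all clusters (6.63% higher, 7.53% lower). With EZH2 cDNA against empty vector 3 passed, all higher, beside 0.977% of all clusters (0.909% higher, 0.068% lower). In MDA-MB-468 shEZH2, 2 passed, both lower, beside 8.3% of all clusters (2.73% higher, 5.57% lower). The median change of the 8 genes was 0.30, -0.06, 0.25 and -0.02 log2 in these comparisons in that order, beside 0.01, 0.02, 0.02 and -0.02 for all clusters tested. The genes were chosen with earlier results of these data known, so these counts and medians are a description and no test of the list.

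**Figure D1:**
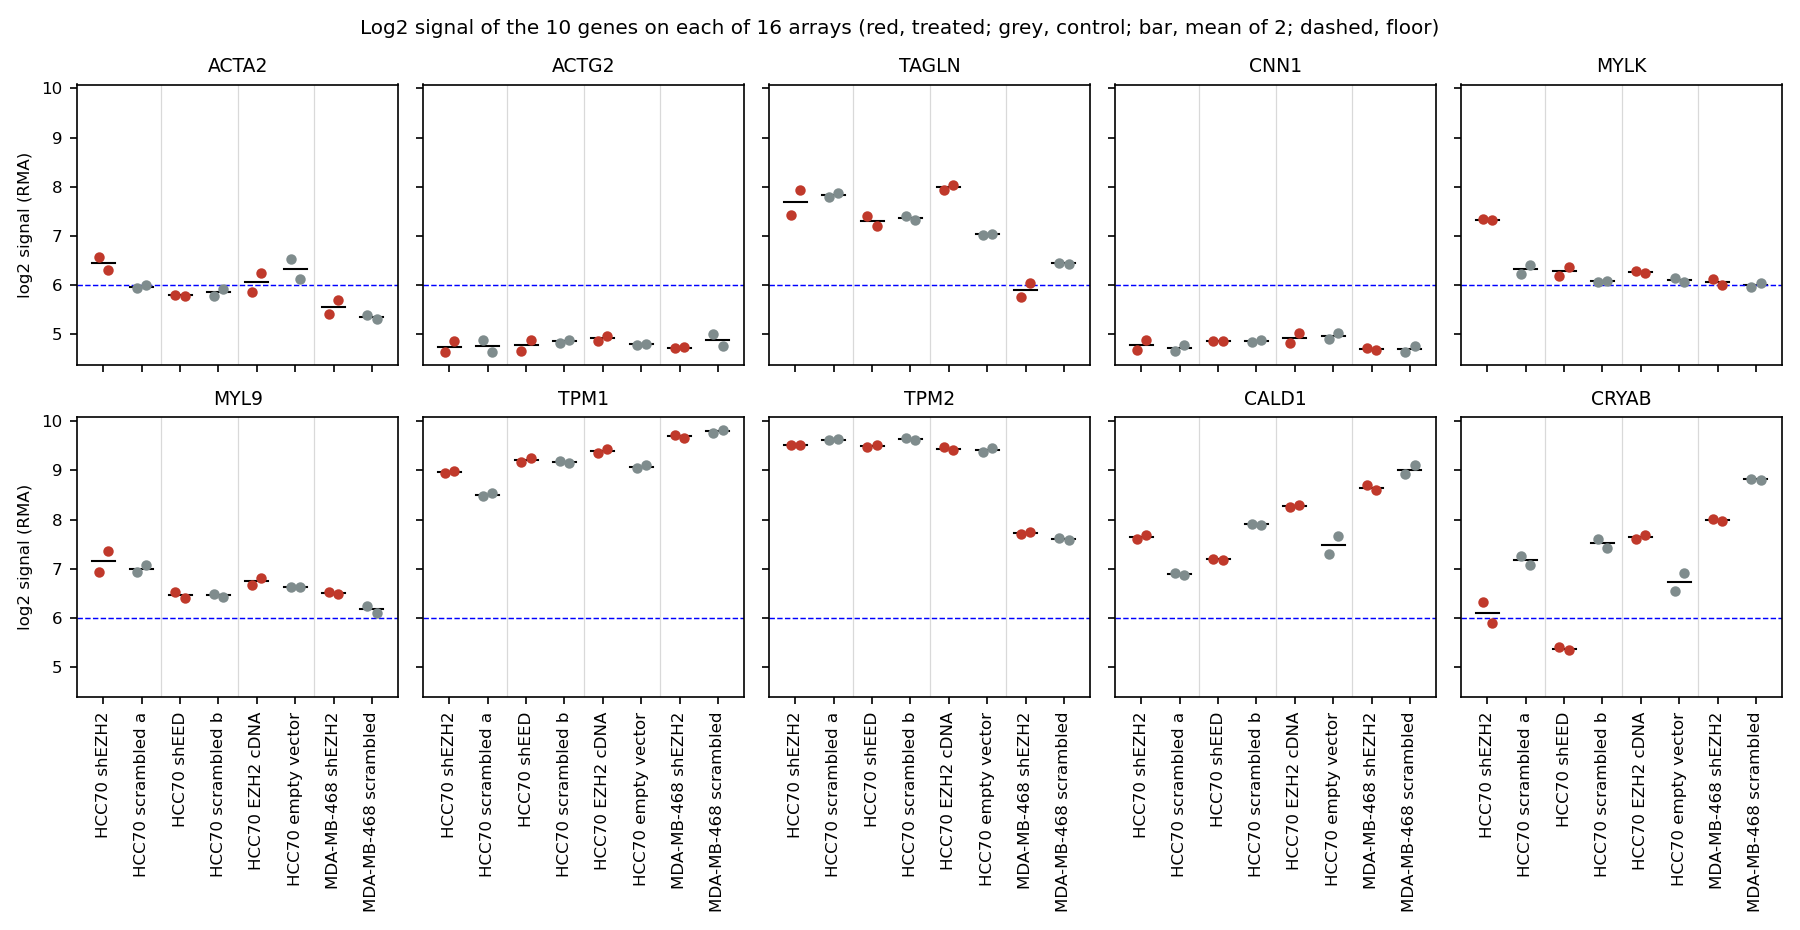
Log2 RMA signal (vertical axis) of each of the 10 genes on each array, by group (horizontal axis), with treated arrays in red, control arrays in grey, a black bar at the mean of 2 arrays and a dashed line at the floor of 6. CNN1 and ACTG2 lie under the floor on all 16 arrays, MYLK stands above its other groups in HCC70 shEZH2, and CRYAB runs from 5.34 to 8.82.

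The 2 smooth muscle actins were dim. ACTA2, which forms the stress fibres of myoepithelial cells, measured 6.58 and 6.31 in HCC70 shEZH2, against 5.94 and 6.00 in scrambled set a. The groups did not overlap, but the 0.48 ± 0.16 difference did not pass (adjusted p = 0.0733). It measured 5.80 and 5.78 in shEED, against 5.78 and 5.92 in set b. It measured 5.87 and 6.25 with EZH2 cDNA, against 6.53 and 6.13 with empty vector. These groups overlapped in both comparisons, with changes of -0.06 and -0.27 (adjusted p = 0.868 and 0.613). In MDA-MB-468 it was 5.41 and 5.69 with shEZH2 and 5.39 and 5.30 with scrambled shRNA, under the floor on all 4 arrays. Only 6 of 16 arrays reached the floor for ACTA2, and its 8 group means ran from 5.35 in MDA-MB-468 scrambled to 6.45 in HCC70 shEZH2. Against set b in place of set a, the HCC70 shEZH2 difference was 0.59 ± 0.16 and passed (adjusted p = 0.0153). Against empty vector it was 0.12 (adjusted p = 0.629), and shEED against empty vector was -0.54 ± 0.16 (adjusted p = 0.0418). The comparisons of knockdowns with empty vector, and of EZH2 cDNA with the scrambled sets, were chosen after seeing the data. ACTG2, the enteric smooth muscle actin, stayed within 0.361 log2 over the 16 arrays, from a lowest value of 4.64. The actins are alike in their coding sequence, so a share of one signal may come from another actin, which was not tested. The general actins were far brighter, ACTB at 12.88 to 13.21 and ACTG1 at 12.55 to 13.15 over the 16 arrays.

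TAGLN, an actin-bundling protein of early smooth muscle differentiation, moved with EZH2 cDNA and in MDA-MB-468. It measured 7.93 and 8.04 with EZH2 cDNA, against 7.03 and 7.03 with empty vector, and rose by 0.96 ± 0.14 (1.94-fold, adjusted p = 0.00905). In MDA-MB-468 it measured 5.77 and 6.04 with shEZH2, against 6.45 and 6.43 with scrambled shRNA, and fell, with a change of -0.54 ± 0.14 (adjusted p = 0.0413). The treated mean of 5.90 is under the floor there, so the size is uncertain. In HCC70 the shEZH2 arrays measured 7.43 and 7.93 and those of set a 7.78 and 7.86, with -0.14 ± 0.14 between them (adjusted p = 0.575). The gap of 0.50 between the shEZH2 duplicates was the widest of TAGLN's 8 groups. The shEED arrays measured 7.40 and 7.20 and those of set b 7.41 and 7.32, which overlapped (-0.07, adjusted p = 0.829). Against set a, shEED was -0.52 ± 0.14 (adjusted p = 0.0137), and against empty vector HCC70 shEZH2 was 0.65 ± 0.14 (adjusted p = 0.00677), so the TAGLN call in both HCC70 knockdowns depended on the control. The EZH2 cDNA rise was 0.62 against set b (adjusted p = 0.0811) and 0.16 against set a (adjusted p = 0.436), and neither passed. Its adjusted p was also 0.0664 without cDNA replicate 1, 0.122 without cDNA replicate 2 and 0.0654 without empty vector replicate 1. The MDA-MB-468 fall had adjusted p-values of 0.0939 and 0.197 without scrambled replicate 1 or 2 and 0.194 without shEZH2 replicate 1. CNN1, a calponin of late smooth muscle differentiation, stayed between 4.65 and 5.04 on all arrays.

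MYLK gave the clearest rise among the contractile genes. It measured 7.34 and 7.32 in HCC70 shEZH2, against 6.23 and 6.41 in scrambled set a. That is 1.01 ± 0.09 log2, or 2.01-fold (adjusted p = 2.44e-05). No other array of the 16 exceeded 6.41, so both shEZH2 arrays lay apart from the other 14. The rise was 1.25 ± 0.09 against set b (adjusted p = 1.88e-06) and 1.24 ± 0.09 against empty vector (adjusted p = 2.89e-06), so it passed against each of the 3 HCC70 controls. It was 0.92 to 1.10 with any 1 array left out. The remaining pairs lay close to the floor. MYLK measured 6.19 and 6.38 in shEED, against 6.07 and 6.08 in set b (0.21 ± 0.09, adjusted p = 0.149). It measured 6.28 and 6.24 with EZH2 cDNA, against 6.13 and 6.05 with empty vector (0.17, adjusted p = 0.567). In MDA-MB-468 the values were 6.12 and 6.00 with shEZH2, against 5.96 and 6.04 with scrambled shRNA, which overlapped (0.06, adjusted p = 0.713). MYLK has a pseudogene copy, MYLKP1, and an overlapping antisense transcript, MYLK-AS1, and their part in the signal was not tested.

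MYL9, the light chain that MYLK phosphorylates, did not pass in any of the 4 comparisons with the assigned control. It measured 6.94 and 7.35 in HCC70 shEZH2 and 6.93 and 7.08 in set a (0.14 ± 0.12, adjusted p = 0.497). The values were 6.53 and 6.41 in shEED and 6.48 and 6.43 in set b (0.02, adjusted p = 0.956). With EZH2 cDNA they were 6.67 and 6.82, and with empty vector 6.62 and 6.63 (0.12, adjusted p = 0.816). Groups overlapped in both knockdowns and did not overlap with EZH2 cDNA. In MDA-MB-468 they did not overlap either, at 6.53 and 6.48 with shEZH2 and 6.25 and 6.09 with scrambled shRNA (0.33 ± 0.12, adjusted p = 0.111). Set a was itself 0.55 ± 0.12 above set b (adjusted p = 0.00777). HCC70 shEZH2 was thus 0.69 ± 0.12 above set b (adjusted p = 0.00157) and 0.52 above empty vector (adjusted p = 0.00902), and shEED against set a was -0.53 ± 0.12 (adjusted p = 0.00526).

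Of the tropomyosins, TPM1 passed in 1 comparison and TPM2 in none of the 4. TPM1, whose many isoforms serve muscle and non-muscle filaments, measured 8.94 and 8.99 in HCC70 shEZH2, against 8.47 and 8.54 in set a (0.46 ± 0.07, adjusted p = 0.00181). The other HCC70 controls were higher than set a, and the direction turned with them: shEZH2 was -0.21 against set b (adjusted p = 0.0508) and -0.11 against empty vector (adjusted p = 0.315). In shEED it measured 9.16 and 9.24, against 9.19 and 9.15 in set b (0.03, adjusted p = 0.848), and against set a the difference was 0.70 ± 0.07 (adjusted p = 2.7e-05). With EZH2 cDNA it measured 9.36 and 9.44, against 9.04 and 9.10 with empty vector. These did not overlap, and the 0.33 ± 0.07 change missed the threshold (adjusted p = 0.0578). Against set a that change was 0.90 and passed (adjusted p = 7.03e-06), and against set b it was 0.23 and did not (adjusted p = 0.249). In MDA-MB-468 it measured 9.72 and 9.66 with shEZH2 and 9.76 and 9.82 with scrambled shRNA (-0.10, adjusted p = 0.417). TPM2, the beta-tropomyosin, held within 9.37 to 9.65 over all 12 HCC70 arrays, and measured 7.71 and 7.75 in MDA-MB-468 shEZH2, against 7.63 and 7.58 in MDA-MB-468 scrambled. Its changes were -0.11, -0.14, 0.03 and 0.12 in shEZH2, shEED, EZH2 cDNA and MDA-MB-468 shEZH2 against their assigned controls, with adjusted p-values from 0.217 to 0.93.

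CALD1, which holds actin and myosin apart until it is phosphorylated, passed in 3 comparisons with the assigned controls. It measured 7.60 and 7.69 in HCC70 shEZH2, against 6.92 and 6.86 in set a (0.75 ± 0.11, 1.68-fold, adjusted p = 0.00102). It measured 7.21 and 7.18 in shEED, against 7.91 and 7.89 in set b (-0.70 ± 0.11, adjusted p = 0.00111). Both knockdown values lay between those of the scrambled sets, which differed by -1.01 ± 0.11 (a minus b, adjusted p = 7.61e-05). With the sets exchanged the directions turned: shEZH2 was -0.26 against set b (adjusted p = 0.0992) and shEED was 0.30 against set a (adjusted p = 0.045). Against empty vector neither passed, at 0.16 for shEZH2 and -0.29 for shEED (adjusted p = 0.308 and 0.099). With EZH2 cDNA, CALD1 measured 8.25 and 8.29, against 7.31 and 7.66 with empty vector (0.78 ± 0.11, adjusted p = 0.00551). The 2 EZH2 cDNA arrays were the brightest of the 12 HCC70 arrays. The rise was 1.37 against set a (adjusted p = 6.24e-06) but 0.37 against set b (adjusted p = 0.204), and its adjusted p was 0.0541 without cDNA replicate 1 and 0.077 without cDNA replicate 2. In MDA-MB-468, CALD1 measured 8.70 and 8.60 with shEZH2, against 8.92 and 9.10 with scrambled shRNA, and the -0.36 ± 0.11 difference missed the threshold (adjusted p = 0.0582).

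CRYAB had the widest range of the 10 genes, 3.48 log2 over the 16 arrays. It measured 6.32 and 5.89 in HCC70 shEZH2, against 7.27 and 7.07 in set a, with a change of -1.07 ± 0.15 (2.09-fold lower, adjusted p = 0.00073). In shEED it measured 5.40 and 5.34, against 7.61 and 7.42 in set b, a change of -2.14 ± 0.15 (4.42-fold lower, adjusted p = 2.65e-06). Both shEED arrays lay under the floor, where a change tends to be understated. These 4 knockdown arrays were below each of the 8 other HCC70 arrays. The shEZH2 change was -1.41 against set b and -0.63 against empty vector (adjusted p = 3.71e-05 and 0.00887), and the shEED change was -1.80 against set a and -1.36 against empty vector (adjusted p = 4.69e-06 and 0.000169). Both falls therefore passed against each of the 3 HCC70 controls. The epithelial markers KRT8, KRT19, KRT5 and CDH1, 4 of 7, were also lower in shEED than in set b (-0.53, -0.27, -0.28 and -0.34). Of all clusters, 7.53% were lower there. Against set a these changes were -0.58, -0.40, -0.55 and -0.07, and that of CDH1 did not pass (adjusted p = 0.594). EPCAM was -0.52 against set a and passed (adjusted p = 0.00819), so 4 of 7 were again lower, beside 13.9% of all clusters. The part of these markers in the CRYAB result was not tested. In MDA-MB-468, CRYAB measured 8.02 and 7.97 with shEZH2, against 8.82 and 8.81 with scrambled shRNA, with a change of -0.82 ± 0.15 (1.77-fold lower, adjusted p = 0.00728). Without scrambled replicate 2 the adjusted p of that fall was 0.0655.

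With EZH2 cDNA, CRYAB measured 7.59 and 7.69, against 6.55 and 6.92 with empty vector, and rose by 0.91 ± 0.15 (1.87-fold, adjusted p = 0.0131). The EZH2 cDNA mean of 7.64 was, however, near that of set b, and the change was 0.13 against set b (adjusted p = 0.858) and 0.47 against set a (adjusted p = 0.0334). The rise was also lost without cDNA replicate 1 (adjusted p = 0.104), cDNA replicate 2 (0.151) or empty vector replicate 1 (0.103). By mean level the 8 groups ran, from low to high, shEED, HCC70 shEZH2 (6.10), empty vector (6.73), set a (7.17), set b (7.51), EZH2 cDNA (7.64), MDA-MB-468 shEZH2 and MDA-MB-468 scrambled (8.82). Of neighbours in this order, only set b and EZH2 cDNA had overlapping arrays. The CRYAB locus adjoins that of HSPB2, which has no cluster with 1 symbol here, and a share of its signal was not tested.

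**Figure D2:**
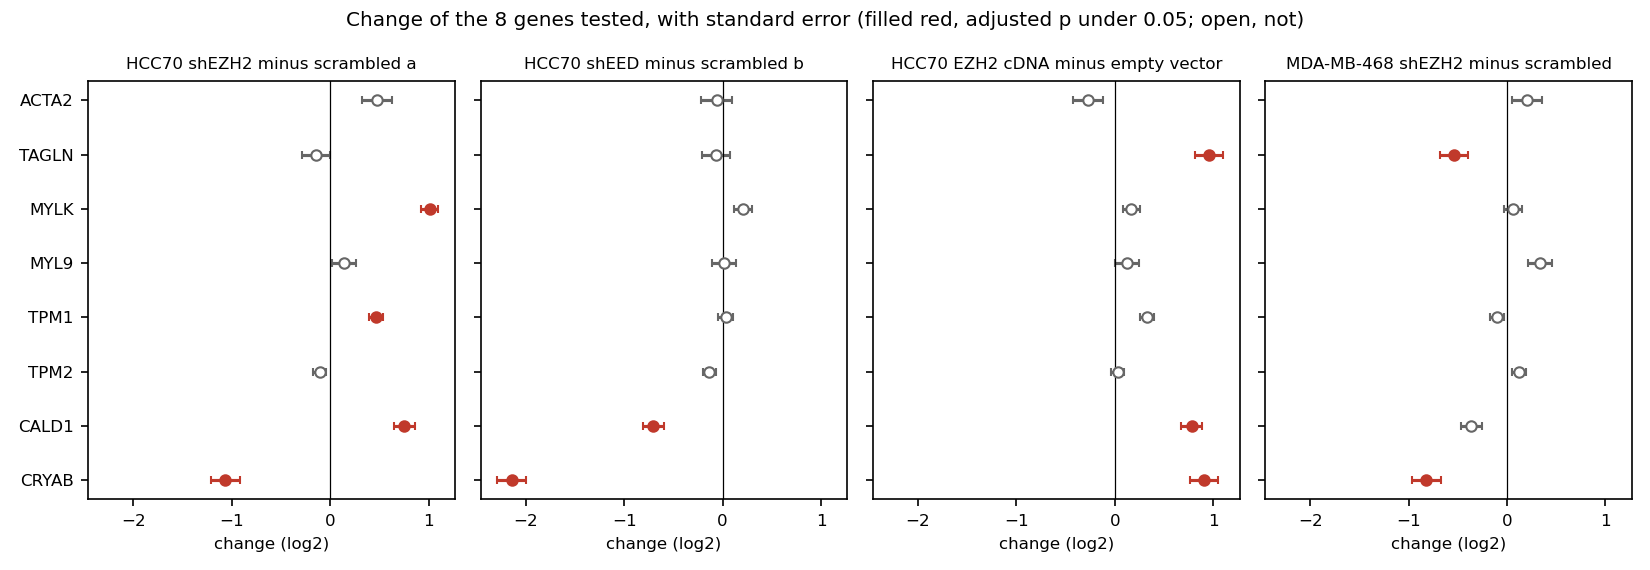
Log2 change with its standard error (horizontal axis) of the 8 genes tested (vertical axis) in each treatment against its assigned control, from limma on 16 arrays, with 2 arrays per group and filled red points where the adjusted p was under 0.05. CRYAB lies left of 0 in the 3 knockdowns and right of it with EZH2 cDNA, and MYLK stands apart at 1.01 in HCC70 shEZH2.

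**Figure D3:**
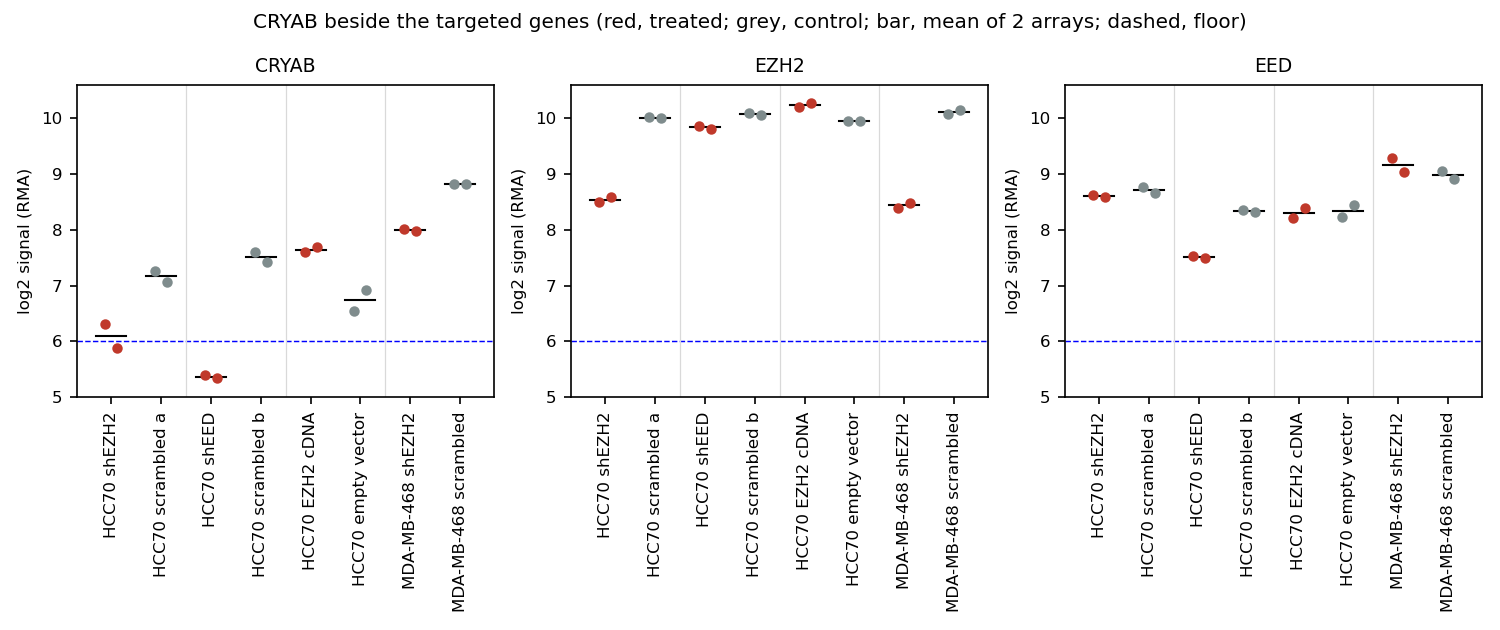
Log2 RMA signal (vertical axis) of CRYAB, EZH2 and EED on each array by group (horizontal axis), with treated arrays in red, controls in grey, a bar at the mean of 2 arrays and a dashed line at the floor of 6. CRYAB is lowest in the HCC70 shEED arrays, at 5.40 and 5.34. EED, the target of that shRNA, is lowest there by design, at 7.54 and 7.49, and a link between the levels was not tested.

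**Figure D4:**
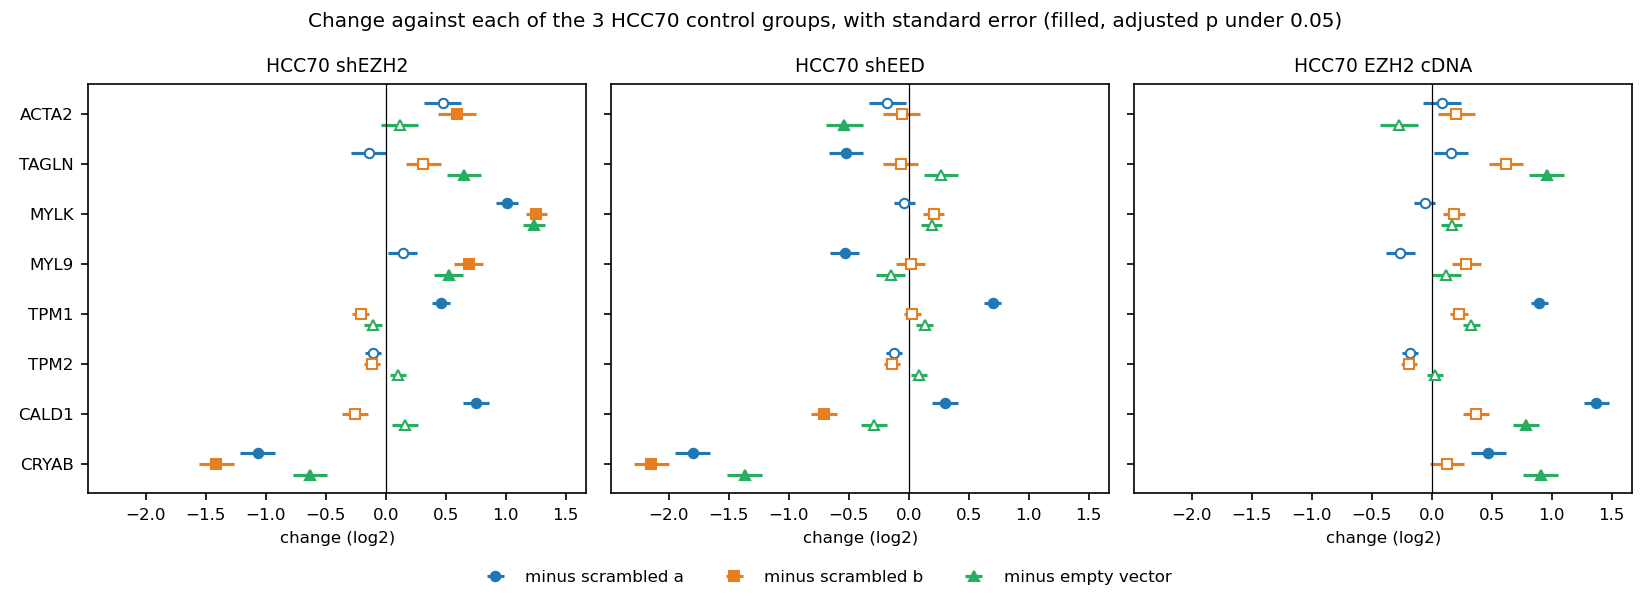
Log2 change with its standard error (horizontal axis) of the 8 genes tested (vertical axis) in the 3 HCC70 treatments against scrambled a (circles), scrambled b (squares) and empty vector (triangles), filled where the adjusted p was under 0.05. All 3 symbols are filled on one side of 0 for MYLK and CRYAB with shEZH2 and for CRYAB with shEED, while TPM1 and CALD1 with shEZH2 lie on both sides.

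The dependence on the control group was followed gene by gene. Besides CALD1 and MYL9, set a differed from set b in TPM1 (-0.67 ± 0.07, adjusted p = 7.7e-05) and TAGLN (0.46 ± 0.14, adjusted p = 0.0389). The TAGLN difference did not pass once any of the 4 scrambled arrays was left out (adjusted p of 0.103 to 0.179). That MYL9 difference did not pass without replicate 2 of set a or of set b (adjusted p = 0.0728 and 0.0574). ACTA2, MYLK, TPM2 and CRYAB did not pass between the sets, with changes of 0.12, 0.24, -0.01 and -0.34 (adjusted p = 0.614, 0.0674, 0.924 and 0.111). In all, 4 of the 8 genes were thus called between control groups of 1 label, 2 higher and 2 lower in set a, beside 22.7% of all clusters (7.41% higher, 15.3% lower). The number called in HCC70 shEZH2 was 4 against either set, but ACTA2 and MYL9 took the places of TPM1 and CALD1 against set b, where 26.7% of all clusters were called (11.3% higher, 15.4% lower). In shEED the number was 2 against set b and 5 against set a, where 36.7% of all clusters were called (22.8% higher, 13.9% lower). Against empty vector, 24.6% of all clusters were called in HCC70 shEZH2 and 13.5% in shEED. With both sets together as control these shares were 18.8% and 27.6%. For EZH2 cDNA, 26.1% were called against set a and 1.04% against set b.

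The control levels were compared between the lines. All 8 genes were called between HCC70 (both scrambled sets) and MDA-MB-468 scrambled arrays, where 69.2% of all clusters did (32.1% higher, 37.1% lower), so most clusters on the array shared this result. TPM2 was 2.02 ± 0.06 higher in HCC70 (4.05-fold, adjusted p = 4.33e-11), with means of 9.63 in HCC70 and 7.61 in MDA-MB-468. TAGLN was 1.15 ± 0.12 higher in HCC70 (adjusted p = 4.93e-06). MYL9 was 0.56 ± 0.11 higher there (adjusted p = 0.000515). The ACTA2 call lies under the floor, with means of 5.91 in HCC70 and 5.35 in MDA-MB-468 and 1 of the 6 scrambled arrays at the floor, so no size is given for it. MYLK was 0.20 higher (adjusted p = 0.0365), a call lost with set b alone as the HCC70 control (0.08, adjusted p = 0.471) and without any array of 5 of the 6 (adjusted p of 0.0695 to 0.182). MYL9 was not called with set b alone either (0.28, adjusted p = 0.0607). The other 3 were lower in HCC70, with differences of -1.62 ± 0.09 for CALD1, -1.47 ± 0.13 for CRYAB and -0.95 ± 0.06 for TPM1 (adjusted p = 2.09e-08, 6.61e-07 and 6.14e-08).

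The EZH2 knockdown effect was compared between the lines by a contrast of the same fit, HCC70 minus MDA-MB-468, in which 13.2% of all clusters were called (8.97% higher, 4.27% lower). MYLK differed by 0.95 ± 0.12 (adjusted p = 0.00086), the HCC70 change being 1.01 and that of MDA-MB-468 0.06. CALD1 differed by 1.11 ± 0.15 (adjusted p = 0.0011) and TPM1 by 0.56 ± 0.10 (adjusted p = 0.00565), both with set a as the HCC70 control. With set b the CALD1 difference was 0.11 (adjusted p = 0.681) and that of TPM1 was -0.11 (adjusted p = 0.513). The CRYAB effects, -1.07 in HCC70 and -0.82 in MDA-MB-468, did not differ by the test (-0.25, 95% interval -0.70 to 0.20, adjusted p = 0.455). The interval still allows a larger fall in either line. TAGLN differed by 0.40 (adjusted p = 0.213), but by 0.85 with set b (adjusted p = 0.0151) and by 0.65 without HCC70 shEZH2 replicate 1 (adjusted p = 0.0278). ACTA2 differed by 0.27, MYL9 by -0.19 and TPM2 by -0.23, none of which passed (adjusted p = 0.442, 0.5 and 0.132).

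Within HCC70, the EZH2 knockdown effect minus the EED knockdown effect was tested in the same way (6.31% of all clusters called, 4.35% higher and 1.96% lower). MYLK differed by 0.80 ± 0.12 (adjusted p = 0.00243), from changes of 1.01 with shEZH2 and 0.21 with shEED. CRYAB differed by 1.08 ± 0.21 (adjusted p = 0.00918), the shEED fall being the deeper one. CALD1 differed by 1.45 ± 0.15 and TPM1 by 0.43 ± 0.10 (adjusted p = 0.000152 and 0.0271). With the scrambled sets exchanged, the CRYAB difference was 0.39 (adjusted p = 0.144), CALD1 turned to -0.56 (adjusted p = 0.012) and TPM1 to -0.91 (adjusted p = 3.96e-05), whereas MYLK was 1.29 (adjusted p = 1.4e-05). Without replicate 1 of set b the CRYAB difference had an adjusted p of 0.0518. The TPM1 difference did not pass without either array of set a, set b or shEED (adjusted p of 0.0617 to 0.123). ACTA2, TAGLN, TPM2 and MYL9 gave 0.53, -0.08, 0.03 and 0.13 and did not pass (adjusted p = 0.183, 0.876, 0.894 and 0.734). With the sets exchanged, ACTA2, TAGLN and MYL9 gave 0.77, 0.84 and 1.22 and passed (adjusted p = 0.0152, 0.00622 and 0.000202).

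Related genes were read from lists of the same biology. The shares of all clusters called were 11.4% in HCC70 shEZH2, 14.2% in shEED, 0.977% with EZH2 cDNA and 8.3% in MDA-MB-468. With the scrambled sets exchanged the shares were 26.7% in shEZH2 and 36.7% in shEED. List counts near these shares, such as no call with EZH2 cDNA, are no result about the list. Calls of list genes with EZH2 cDNA were computed against empty vector alone, so their dependence on the control was not tested. Over all clusters, the 158 called in that comparison became 0 when only the arrays of its own groups were fitted. Of 13 other smooth muscle contractile genes, 12 were on the platform with 1 symbol and 7 were tested. MYH11, LMOD1, SYNPO2, KCNMB1 and PGM5, which mark mature smooth muscle, did not pass the floor filter. With HCC70 shEZH2 against set a, 2 of the 7 rose, PDLIM7 (0.31, adjusted p = 0.0487) and TGFB1I1 (0.36, adjusted p = 0.0475), and SMTN, smoothelin, fell (-0.40, adjusted p = 0.027). SMTN also fell with shEED (-0.68, adjusted p = 0.000988). With the sets exchanged SMTN was -0.64 and -0.43 and passed in both knockdowns (adjusted p = 0.000762 and 0.00628), while PDLIM7 and TGFB1I1 in shEZH2 were 0.21 and 0.09 and did not (adjusted p = 0.104 and 0.563). None of the 7 passed with EZH2 cDNA or in MDA-MB-468. The list medians were 0.05, -0.05, 0.17 and 0.05 in shEZH2, shEED, EZH2 cDNA and MDA-MB-468 shEZH2.

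Of 22 general actomyosin and filament genes, 19 were tested. In HCC70 shEZH2, 3 were called higher and none lower. One of these calls, MYH10, the heavy chain of non-muscle myosin IIB, rests on signal under the floor, with means of 5.58 in shEZH2 and 4.39 in set a. It was tested because MDA-MB-468 was high, at 8.86 with shEZH2 and 8.81 with scrambled shRNA, so no size is given for it. CNN2, a calponin of non-muscle cells, rose by 0.58 (adjusted p = 0.00447) and profilin PFN1 by 0.25 (adjusted p = 0.0433). In shEED, 3 fell: VCL, vinculin (-0.56, adjusted p = 0.000402), CNN2 (-0.38, adjusted p = 0.0334) and ACTN4, an actinin (-0.36, adjusted p = 0.00942). VCL was the single call with EZH2 cDNA, at 0.45 (adjusted p = 0.0152), and in MDA-MB-468, at -0.48 (adjusted p = 0.00365). With the scrambled sets exchanged, 3 rose and 4 fell in shEZH2, and 3 rose and 2 fell in shEED, among them VCL, at -0.83 in shEZH2 and 0.26 in shEED. CNN2 in shEZH2 was 0.03 against set b (adjusted p = 0.863), and in shEED it turned to 0.18 against set a (adjusted p = 0.207).

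Of 16 SRF and MRTF target genes, 14 were tested. Of these, 2 rose in HCC70 shEZH2, THBS1 (0.68, adjusted p = 0.000523) and JUNB (0.42, adjusted p = 0.0155). In shEED 1 rose, EGR1 (0.73, adjusted p = 0.000723), and 5 fell, among them ANKRD1 (-1.11), CCN2 (-0.64) and VCL. With EZH2 cDNA 4 rose and none fell: CCN1 (0.89, adjusted p = 0.00459), CCN2 (0.72, adjusted p = 0.00346), THBS1 (0.51, adjusted p = 0.0202) and VCL. These EZH2 cDNA calls were not computed with another control. In MDA-MB-468 shEZH2 4 fell: ANKRD1 (-0.80, adjusted p = 0.00385), CCN1 (-0.53, adjusted p = 0.02), VCL and THBS1 (-0.40, adjusted p = 0.0192). This list turned with the scrambled set. In set a, 11 of the 14 were lower and none higher than in set b, beside 15.3% and 7.41% of all clusters. Against set b, 10 fell and none rose in shEZH2, where 15.4% of all clusters fell and 11.3% rose. Against set a, 10 rose and none fell in shEED, where 22.8% of all clusters rose and 13.9% fell. THBS1 was the extreme case, at -2.05 in shEZH2 against set b and 2.58 in shEED against set a. These counts with exchanged sets were added after seeing the data.

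CRYAB's own relatives were read in the same way. Of 15 small heat shock proteins and partners, 8 were tested. HSPB8, a small heat shock protein of the same family, rose in HCC70 shEZH2 (0.80 ± 0.21, adjusted p = 0.0288), where CRYAB fell. HSPB1 fell in shEED (-0.33, adjusted p = 0.0136) and in MDA-MB-468 shEZH2 (-0.39, adjusted p = 0.0126), and the cochaperone DNAJB1 fell in shEED (-0.32, adjusted p = 0.00544). None of the 8 passed with EZH2 cDNA. Against set b, HSPB8 was 0.84 in shEZH2 (adjusted p = 0.0107), and against set a HSPB1 was -0.44 in shEED (adjusted p = 0.00108) and DNAJB1 -0.07 (adjusted p = 0.4).

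Of 20 other myoepithelial and basal genes, 13 were tested. Keratin KRT14 fell in HCC70 shEZH2 (-0.82 ± 0.09, adjusted p = 0.000122) and in shEED (-0.56 ± 0.09, adjusted p = 0.00125) and rose with EZH2 cDNA (0.50 ± 0.09, adjusted p = 0.0212). In MDA-MB-468 it changed by -0.03 (adjusted p = 0.883), and against set b the HCC70 shEZH2 change was -0.08 (adjusted p = 0.535). Against set a the shEED change was -1.30 (adjusted p = 1.38e-06). The surface peptidase MME fell in shEED (-1.32, adjusted p = 9.69e-05) and in MDA-MB-468 shEZH2 (-0.75, adjusted p = 0.0108), but in shEED it was -0.21 against set a (adjusted p = 0.279). In HCC70 shEZH2, MME was not called against set a but was -1.19 against set b (adjusted p = 0.000121). With both sets together as control, MME was -0.63 in shEZH2 and -0.76 in shEED and passed (adjusted p = 0.00427 and 0.000884). In HCC70 shEZH2 the ectonucleotidase NT5E rose by 1.59 ± 0.18 (adjusted p = 0.000179) and S100A2 had a change of -1.03 ± 0.15 (adjusted p = 0.0012). Against set b these were 1.72 (adjusted p = 4.03e-05) and -0.35 (adjusted p = 0.11). CAV1, caveolin, fell in shEED (-0.74, adjusted p = 0.00102, and -1.19 against set a). In all, 2 rose and 2 fell in shEZH2, 4 fell in shEED, 1 rose with EZH2 cDNA and 1 fell in MDA-MB-468.

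TGF-beta induces several contractile genes in other cells, and 15 of 17 genes of its pathway were tested. In HCC70 shEZH2 against set a 6 rose and none fell, led by the feedback inhibitor PMEPA1 (0.78, adjusted p = 0.000102), the receptor TGFBR2 (0.65, adjusted p = 0.00298), SKIL (0.60, adjusted p = 0.00581) and the ligand TGFB1 (0.52, adjusted p = 0.021). Against set b, 1 rose and 4 fell, and PMEPA1, TGFBR2, SKIL and TGFB1 were 0.03, 0.07, -0.56 and 0.06. In shEED 2 rose and 2 fell, with the inhibitor SMAD7 at 0.63 (adjusted p = 0.00867), and against set a 10 rose and 2 fell. None of the 15 passed with EZH2 cDNA. In MDA-MB-468 shEZH2, 3 rose, the matrix protein TGFBI (0.77, adjusted p = 0.000634), PMEPA1 (0.47, adjusted p = 0.00661) and SMAD3 (0.40, adjusted p = 0.0314), and TGFBR2 fell (-0.45, adjusted p = 0.03).

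**Figure D5:**
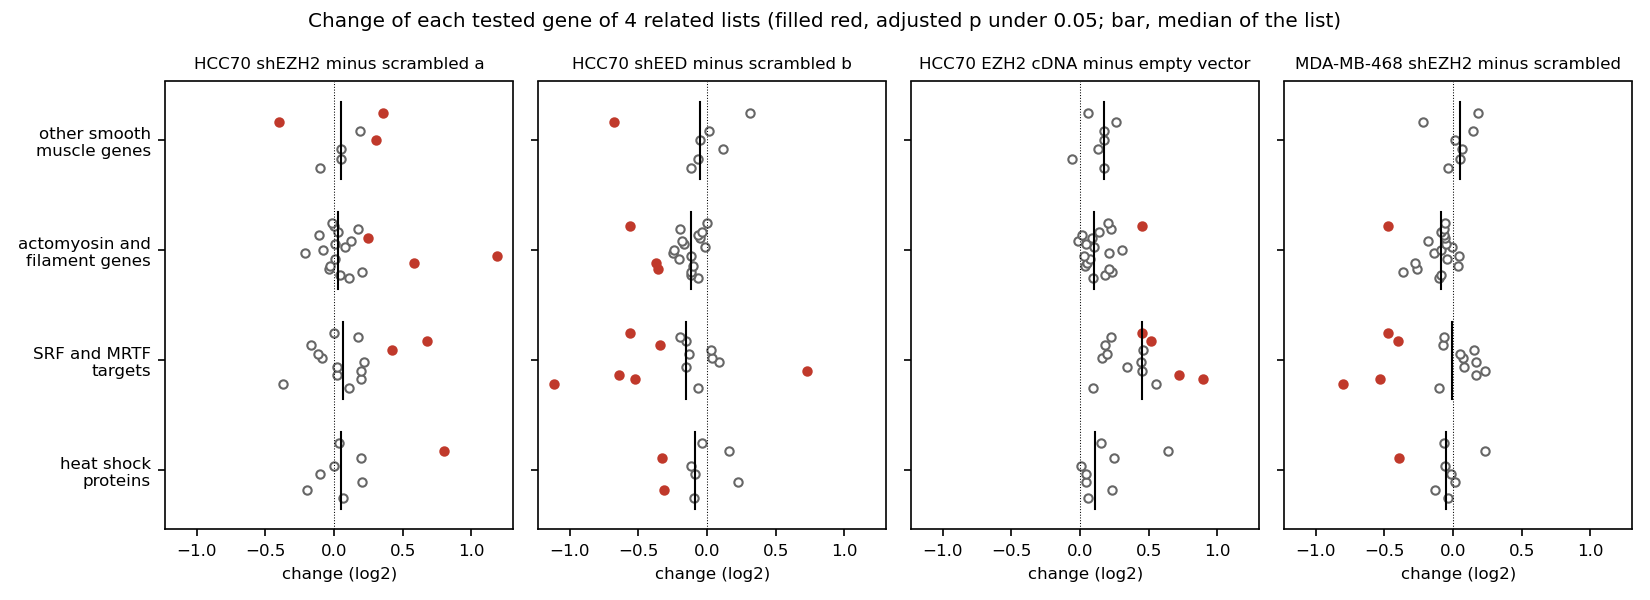
Log2 change (horizontal axis) of each tested gene of 4 lists (vertical axis) in each treatment against its assigned control, filled red where the adjusted p was under 0.05, with a bar at the list's median. The SRF and MRTF targets lie right of 0 with EZH2 cDNA, where 4 of 14 passed, and the other smooth muscle genes have no filled point there or in MDA-MB-468. The EZH2 cDNA calls were not computed with another control.

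The labelled cell type was checked against markers. All 7 breast epithelial markers were above the floor on all 16 arrays, from 9.23 for CDH1 to 13.14 for KRT5. Their mean per array reached 12.04 in HCC70 shEZH2, against 12.02 in set a, and lay between 11.66 and 11.68 in shEED, against 11.97 in set b. EPCAM was -0.51 in shEZH2 against set a (adjusted p = 0.0253) and -0.37 against set b, which did not pass (adjusted p = 0.0525). Of 9 fibroblast markers, 8 were under the floor on all arrays, and COL1A1 ran from 6.29 to 7.56. Of 5 smooth muscle markers, MYH11, LMOD1, SYNPO2 and MYOCD were under the floor on all arrays, and DES ran from 5.83 to 6.47. The 3 endothelial markers, and PTPRC and CD3E of the 3 leukocyte markers, were under the floor throughout, while CD68 ran from 7.37 to 9.86. The mean of the fibroblast markers lay between 4.62 and 4.70 in HCC70 shEZH2 and reached 4.54 in set a. That of the smooth muscle markers lay between 4.80 and 5.01 in HCC70 shEZH2 and between 4.76 and 4.91 in set a, which overlapped. The part of either list in the results was not tested.

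Across the 12 HCC70 arrays, the correlations between members took both signs. Pearson's r between members, given as a description since the arrays share groups and lines, was highest for TPM1 with CALD1 (0.776), MYLK with MYL9 (0.715) and TAGLN with MYL9 (0.646). It was lowest for TPM1 with MYL9 (-0.53), and CRYAB reached 0.489 with CALD1 and -0.406 with MYLK. Among 812 other genes whose HCC70 group means ranged over at least 1 log2 unit, those most like CRYAB were CD180 (0.976), CD14 (0.971) and TMEM156 (0.97). Those most like MYLK were CST6 (0.973), CLMP (0.965) and ELOVL7 (0.963), and those most like TAGLN were KRT16 (0.736), KLK10 (0.727) and ITGBL1 (0.725). ELOVL7 averaged 6.38 in HCC70 shEZH2 but 4.07 to 4.60 in the other HCC70 groups, under the floor. MYLK was high in shEZH2 only, so its r values lean on that group. At r of 0.8 or above, CRYAB had 101 of the 812 genes, MYLK 67 and TAGLN 0.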

How the data were processed

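RNA of 16 samples of HCC70 and MDA-MB-468 cells was hybridised to Affymetrix Human Gene 1.0 ST arrays. The authors deposited log2 signals for every transcript cluster on every array, made with RMA in Affymetrix Expression Console per the submitters' processing notes. RMA subtracts background, normalizes between arrays and summarises probes, so changes of dim clusters tend to be understated. For software versions and the genome build, nothing was given in the sources used here. Groups came from the sample titles. Batches were not tested, since scan dates were not analysed here. The number of arrays limits the precision.

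Symbols came from the platform annotation: 19460 of 33297 clusters had 1 symbol, 1754 several and 12083 none. Clusters with log2 6 or more on at least 2 of 16 arrays were tested (16175). limma 3.58.1 (lmFit, eBayes) in R 4.3.3 fitted 8 group means to all 16 arrays, with 8 residual and 3.69 prior degrees of freedom. Tests were two-sided with Benjamini-Hochberg adjustment over all clusters tested in a comparison, and calls needed an adjusted p under 0.05. Errors of changes are standard errors of this fit. The fit was tested on simulated data. Samples with the same replicate number did not deviate together within the 4 pairs compared (r of 0.0774, -0.00199, 0.00225 and -0.0228), so the number was not used as a block in the results given.

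The 10 members and the lists were chosen with earlier results of these data known. Named besides them are EZH2 and EED, at most the 4 called genes of largest change per list and treatment, and the 3 genes most like TAGLN, CRYAB and MYLK. Alternatives covered the control group, the floor, the clusters fitted, normalization, the variance prior, the arrays fitted, the replicate block and each array left out. Each member had 1 cluster with 1 symbol, so no second cluster of a gene was compared. The results of 1 related list are not reported here.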

Additional observations from a re-analysis of the deposited data

Results flagged for a closer look

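Several changes differed between treatments by a test of the difference itself, with 2 arrays per group. Between the lines, the EZH2 knockdown effect in HCC70 minus that in MDA-MB-468 was 0.95 log2 for MYLK, 0.56 for TPM1 and 1.11 for CALD1. Within HCC70, the effect of shEZH2 minus that of shEED was 0.80 for MYLK, 0.43 for TPM1, 1.45 for CALD1 and 1.08 for CRYAB. The MYLK differences passed with either scrambled set as control, and those of TPM1 and CALD1 lost their call or turned with the other set. The CRYAB difference lost its call with the other set, at 0.39. With 2 arrays per group, no single array could be tested for standing apart.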

How the results depend on the processing

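Directions and calls of MYLK in HCC70 shEZH2 and of CRYAB in shEED were kept under every alternative run, and CRYAB in HCC70 shEZH2 lost its call only when the 4 arrays compared were fitted alone (adjusted p = 0.0596). The number of genes called in HCC70 shEZH2 was 2 in place of 4 in that small fit, which has fewer arrays to estimate the spread. It was 0 in place of 3 for EZH2 cDNA and 0 in place of 2 for MDA-MB-468 shEZH2 in the same kind of fit. The MDA-MB-468 number was 1 without a filter and 1 after a second quantile normalization. For shEED it was 5 with the other scrambled set, and for EZH2 cDNA it was 0 with scrambled b as control; the cause was not tested. With any 1 array left out, the number ran from 4 to 4 in HCC70 shEZH2, from 2 to 2 in shEED, from 0 to 3 with EZH2 cDNA and from 0 to 2 in MDA-MB-468. For the differences it ran from 3 to 4 between lines, from 2 to 4 between EZH2 and EED, from 7 to 8 between control lines and from 2 to 3 between scrambled sets.

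Of the sign changes, 11 involved a value called before or after, all with another control group, and each is given here. Another 17 with another control group, 13 with an array left out and 2 under quantile normalization involved values called in neither, among them TAGLN in HCC70 shEZH2, at 0.32 against set b and 0.11 without shEZH2 replicate 1, and MYLK in shEED, at -0.03 against set a. With the other scrambled set, shEZH2 gave TPM1 -0.21 and CALD1 -0.26, and shEED gave MYL9 -0.53 and CALD1 0.30. The difference between lines gave TPM1 -0.11, and the difference of EZH2 minus EED gave TAGLN 0.84, TPM1 -0.91 and CALD1 -0.56. With both sets together that difference gave TPM1 -0.24. With empty vector as control of shEZH2, chosen after seeing the data, TAGLN was 0.65 and TPM1 -0.11. With the replicate block, which rests on numbers that the samples only share, the numbers called were 4, 2, 3 and 2 in the 4 treatments, as without it, and no member's call changed (CRYAB -1.07, -2.14, 0.91 and -0.82).

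Counts over all clusters moved more. For HCC70 shEZH2 (1837) they were 4325 with set b, 3048 with both sets, 3977 with empty vector and 276 in the small fit, and for shEED (2290) 5940, 4465 with both sets and 4439 in the small fit. For EZH2 cDNA (158) they were 88 without a filter, 88 after median centring, 4227 against set a and 0 in the small fit, and for MDA-MB-468 (1343) 848 without a filter and 21 in the small fit. The difference between lines (2141) gave 500 in the small fit, EZH2 minus EED (1021) gave 6843 with the other set, 5169 with both sets and 677 after centring, and the scrambled sets (3677) gave 6269 in the small fit. Median centring moved the split of higher and lower calls to 226 and 975 in MDA-MB-468, beside 442 and 901, and to 684 and 2665 between scrambled sets, beside 1198 and 2479. Left-out arrays gave 685 to 763 for shEZH2 without a set a array, 1012 to 1119 for shEED, 14 to 97 for EZH2 cDNA and 210 to 618 for MDA-MB-468 without scrambled replicate 2 or shEZH2 replicate 1.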
